A study of Mus musculus with 6 samples.

Results

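The 10 genes B2m, Tap1, Tap2, Tapbp, Tapbpl, Psmb8, Psmb9, Psmb10, Erap1 and Nlrc5, which make, trim and load peptides for MHC class I molecules, were compared between the mouse mesothelioma cell lines AC29 and AB1. They were taken by symbol from the 18193 genes of the array, each represented by whichever of its probe sets was brightest on average across the 6 arrays, and all 10 were measured. A probe set is a group of short probes against a single transcript. The mouse of origin was BALB/c for AB1 and CBA for AC29, in each case a female of 6 to 8 weeks per the labels. AB1 was used at passage 40 and AC29 at passage 60, each as 3 flasks of untreated cells grown to 80% confluency in medium with fetal calf serum. RNA from every flask went on its own Affymetrix 3′ array (AB1 replicates 4, 5 and 6, AC29 replicates 13, 14 and 15). Each strain is represented by a single tumour line, so line, strain, passage and any batch cannot be told apart. The p-values measure the spread between flasks only.

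MHC class I molecules show fragments of a cell's own proteins to cytotoxic T cells. The proteasome cuts proteins in the cytosol, the Tap1 and Tap2 pump carries the fragments into the endoplasmic reticulum, Erap1 trims their ends, and tapasin (Tapbp) and its relative Tapbpl help select those that bind well to a heavy chain paired with B2m. Interferons raise most of these genes, and they exchange the catalytic proteasome subunits Psmb5, Psmb6 and Psmb7 for Psmb8, Psmb9 and Psmb10, which gives the immunoproteasome. Nlrc5 is a transcriptional coactivator of class I genes. Loss of these genes is a known route by which tumour cells escape T cells.

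Values are log2 intensities per the submitters' processing notes and the range of the values, and a difference is AC29 minus AB1 on that scale. The median of an array lay between 5.76 and 5.81. A floor of 6.07, the 95th percentile of 86 probe sets for olfactory, vomeronasal and taste receptors, stands for background. Calls required a limma adjusted p below 0.05 together with a difference of 1 or more, which is 2-fold. Of 13 mesothelial markers, each was above the floor on at least 1 AC29 array and 8 were not above it on any AB1 array, among them Wt1 and Upk3b; 11 were called higher in AC29, and Msln was present in each line at 10.41 and 9.67. Of 21 leukocyte markers, 12 were not above the floor on any array, including the pan-leukocyte gene Ptprc at 3.72 in AB1 and 3.64 in AC29. The other 9 were above it on at least 3 arrays, among them Cd3e (6.83 in AB1 and 7.01 in AC29) and Cd4 (6.61 and 6.78). Cd3e and Cd4 stayed under 7.23, the 99th percentile of the floor probe sets, on every array. The log2 of the summed intensity of all 21 was 10.59 to 10.67 in AB1 and 10.25 to 10.35 in AC29. The lipopolysaccharide coreceptor Cd14 was the 1 leukocyte marker called, higher in AB1. Of 8 endothelial markers 7 were not above the floor on any array, with sums of 8.14 to 8.16 and 8.01 to 8.08. The summed mesothelial markers were 12.69 to 12.90 in AB1 and 15.46 to 15.61 in AC29; the part of this in the differences reported here was not tested. In RNA from a whole flask, fewer expressing cells and less RNA per cell cannot be told apart.

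Of the 10 genes, Tapbp, Tapbpl, Psmb10 and Erap1 were called higher in AC29, and Tap1 and Nlrc5 were called higher in AB1, Nlrc5 at values under the floor. Over all genes 10.9% were called, 5.12% toward AC29 and 5.82% toward AB1; among the 11167 genes above the floor on at least 3 arrays the share was 16.5%. On the adjusted p alone, Psmb8 and Psmb9 were also higher in AC29 and B2m higher in AB1, which gave 6 genes toward AC29 and 3 toward AB1. That rule was passed by 39.1% of all genes, 19.1% toward AC29 and 20% toward AB1. For 9 of the 10 genes, all but Tap2, the AB1 and AC29 arrays occupied separate ranges, against 50.1% of all genes. The median difference of the 10 was 0.74, and that of all genes was -0.0047. The calls of the 10 genes, which need the 2-fold minimum, were the same in each of the 6 fits that left out an array; on the adjusted p alone B2m did not pass in 2 of them.

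**Figure D1:**
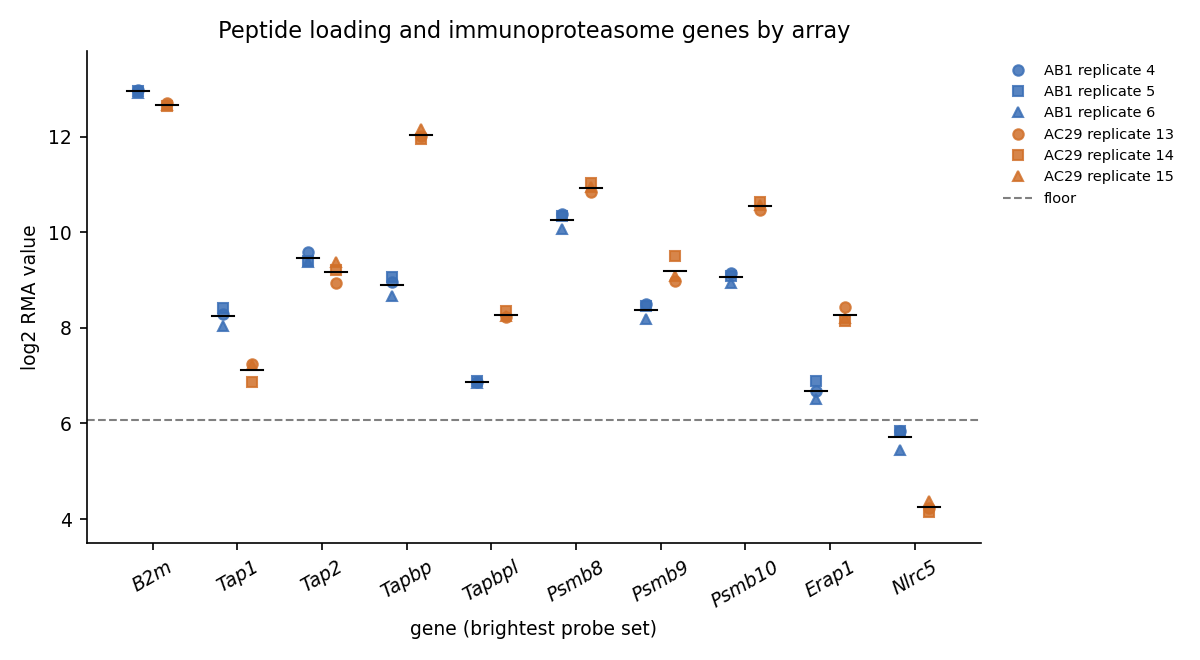
Log2 RMA value (vertical axis) of the brightest probe set of each of the 10 genes (horizontal axis) on each of the 3 AB1 arrays (blue) and 3 AC29 arrays (orange); symbols mark the replicate, short black lines the mean of a line and the dashed line the floor of 6.07. Tapbp shows the widest gap, Tap2 overlaps, and Nlrc5 lies under the floor on every array.

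Genome sequence from RefSeq bears on how some of these genes are arranged. Tap1 and Psmb9 start back to back with 225 bases between them, and Psmb8 and Tap2 follow Tap1 in the class II region of the mouse MHC on chromosome 17. The stretch between the starts is shown because it lies before a gene that was called higher in AB1 (Tap1, on the strand printed) and before a gene with a higher value in AC29 (Psmb9, on the opposite strand). It is chr17:34187331-34187555 of GRCm38.p6, plus strand, 5′ to 3′, and capitals mark CCAAT.
Tap1 to Psmb9: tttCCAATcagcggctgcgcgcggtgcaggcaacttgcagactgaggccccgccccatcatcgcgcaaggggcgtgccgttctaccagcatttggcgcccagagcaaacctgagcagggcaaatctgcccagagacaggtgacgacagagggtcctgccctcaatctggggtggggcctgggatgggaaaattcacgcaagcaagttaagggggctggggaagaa
Promoter windows of 250 bases before the start were at hand for 7 of the 10 genes (B2m, Tap1, Tapbp, Psmb8, Psmb9, Psmb10 and Erap1). For Erap1 the start is that of the promoter table, and the whole window lies inside the gene's full RefSeq span, which begins further upstream. They were searched on both strands for GAAA, any 2 bases, then GAAA (a core of the interferon-stimulated response element bound by IRF proteins), for TTCNNNGAA (the form bound by STAT dimers) and for CCAAT; the patterns overlapped nowhere in these windows. The first was found in B2m alone, at 139 to 130 bases before its start, and is present in 2.98% of 32851 mouse promoter windows of that length. The STAT form was found in Psmb8 alone, at 97 to 89 bases before the start, against 7.02% of the windows. CCAAT was found in B2m, Tap1, Tapbp and Psmb9, against 33.8% of the windows. When the window was widened to 300 bases, with 50 after the start, Erap1 also held the first pattern, on the minus strand across its start, where 3.44% of windows hold it. The matches to the first and second patterns are given on the plus strand with up to 10 bases on each side, capitals marking the match, at chr2:122147538-122147567 (B2m), chr13:74639839-74639868 (Erap1) and chr17:34198088-34198116 (Psmb8) of GRCm38.p6.
B2m: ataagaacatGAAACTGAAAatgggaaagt
Erap1: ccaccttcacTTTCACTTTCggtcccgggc
Psmb8: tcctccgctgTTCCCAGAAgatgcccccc
A match gives letters only. It is not shown to be a bound site, and the reference is a C57BL/6J genome and not that of either line.

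The largest difference was that of the loading chaperone tapasin. Tapbp read 8.96, 9.06 and 8.68 in AB1 replicates 4, 5 and 6, and 12.02, 11.96 and 12.16 in AC29 replicates 13, 14 and 15. Every AC29 array was far above every AB1 array. The difference was 3.15 ± 0.11 (SE; limma adjusted p = 4.34e-08, n = 3 per line), or 8.85-fold. Its other probe set, also above the floor in each line, read 7.92, 7.26 and 7.56 in AB1 and 10.31, 10.69 and 11.01 in AC29, a difference of 3.09 ± 0.20. Tapasin bridges class I molecules to the Tap1 and Tap2 pump and holds them until a well-fitting peptide binds. The genes whose 6 array values lay nearest those of Tapbp, each taken relative to its own mean, were Adamtsl4, F11r and Tmem140. Their root mean square distances were 0.037, 0.045 and 0.064. With lines this far apart, the distance mostly picks genes with a like difference between the lines (3.10, 3.13 and 3.09). In AB1, Tmem140 was not above the floor on any array and Adamtsl4 was above it on 1.

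Tapbpl, a relative of tapasin that edits peptides outside the loading complex, was also higher in AC29. It read 6.86, 6.88 and 6.85 in AB1, not far above the floor, and 8.22, 8.35 and 8.26 in AC29. The values of a line lay within a narrow band and the lines did not overlap. The difference was 1.41 ± 0.08 (SE; limma adjusted p = 8.74e-07), or 2.66-fold. Its other probe set was not above the floor on any array and differed by 0.25, and on the mean of both probe sets Tapbpl was not called (0.83). Within an array, Tapbp minus Tapbpl was 2.04 ± 0.18 (SD, n = 3) in AB1 and 3.77 ± 0.14 in AC29, so Tapbp differed by 1.74 more than Tapbpl did. The groups did not overlap, and the 2-sided exact permutation test gave p = 0.1, the smallest value that 3 arrays against 3 can give; 0.1 was also the value after adjustment over the 5 gene pairs compared in this way.

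Of the subunits of the peptide pump, Tap1 was called higher in AB1 and Tap2 did not pass. Tap1 read 8.29, 8.42 and 8.04 in AB1 and 7.24, 6.87 and 7.22 in AC29. All AB1 arrays lay above all AC29 arrays. The difference was -1.14 ± 0.13 (SE; limma adjusted p = 0.000116), or 2.2-fold higher in AB1. Tap1 had 3 other probe sets, none above the floor on any array, with differences of -0.30, -0.08 and -0.02; on the mean of its 4 probe sets it was not called (-0.38). Tap2, the partner subunit, read 9.59, 9.40 and 9.38 in AB1 and 8.94, 9.21 and 9.38 in AC29. AC29 replicate 15 lay inside the AB1 range and the difference of -0.28 (95% interval -0.56 to 0.0015; limma adjusted p = 0.112) did not pass. Tap1 minus Tap2 within an array was -1.21 ± 0.20 (SD, n = 3) in AB1 and -2.07 ± 0.33 in AC29, without overlap (difference -0.86, exact permutation p = 0.1). With the mean of the Tap1 probe sets that difference was -0.11 (exact permutation p = 0.6).

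Erap1, the aminopeptidase that trims peptides in the endoplasmic reticulum, was higher in AC29. It read 6.67, 6.89 and 6.51 in AB1, not far above the floor, and 8.43, 8.15 and 8.21 in AC29. The lines were well apart, with a difference of 1.58 ± 0.12 (SE; limma adjusted p = 6.55e-06), or 2.98-fold. The other Erap1 probe set was not above the floor in AB1 (4.07, 4.44 and 4.29) and read 7.05, 6.53 and 6.77 in AC29, at least 1.64-fold higher when AB1 is set to the floor. B2m, the light chain that every class I molecule needs, was bright in each line at 12.98, 12.96 and 12.92 in AB1 and 12.71, 12.65 and 12.67 in AC29. Its difference was small and regular: -0.28 by the brightest probe set (95% interval -0.46 to -0.10; limma adjusted p = 0.0182) and -0.29 by the other. Without AB1 replicate 4 or 5 B2m no longer passed the adjusted p in limma (0.073 and 0.0535), and over the 6 fits that left out an array the adjusted p ran from 0.0344 to 0.073.

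**Figure D2:**
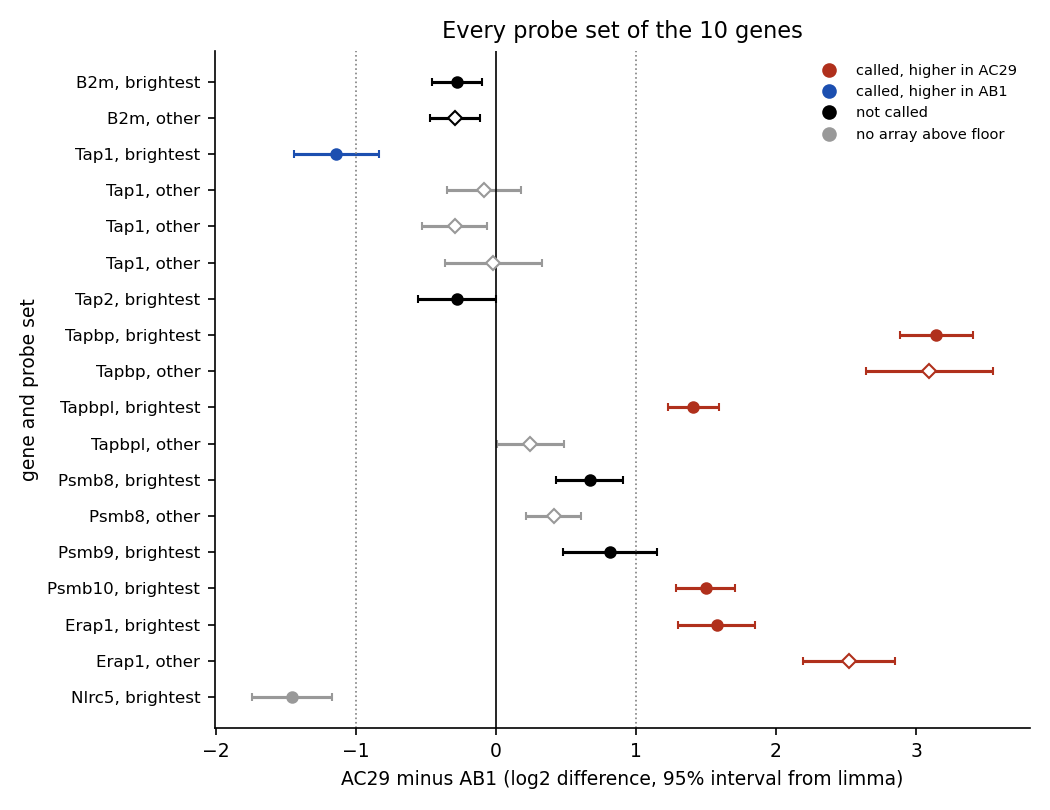
AC29 minus AB1 (horizontal axis, log2, with the 95% interval from limma) for each of the 18 probe sets of the 10 genes (vertical axis); filled circles are the brightest probe set of a gene, open diamonds the others, colours the call, and grey marks a probe set with no array above the floor. Of the 12 probe sets above the floor on some array, both of Tapbp and both of Erap1 lie past 1, and both of B2m lie between -0.5 and 0.

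At the level of probe sets, 8 of the 18 were called, against 8.69% of all 45037 probe sets. They were 7 of the 12 above the floor on some array and 1 under it, that of Nlrc5. The share called among all probe sets above the floor was not computed. Of the 7, Tapbp and Erap1 each gave 2. Genes with a second probe set above the floor on some array, Tapbp, Erap1 and B2m, had the same direction in each. That of Erap1 was above the floor in AC29 only, so its direction followed from this filter and is not a check. Psmb9, Psmb10, Tap2 and Nlrc5 had a single probe set, so nothing on the array checks them.

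All 3 inducible proteasome subunits had higher values in AC29, and Psmb10 was called. Psmb10, which takes the place of Psmb7, read 9.15, 9.08 and 8.95 in AB1 and 10.46, 10.64 and 10.57 in AC29. The difference was 1.5 ± 0.09 (SE; limma adjusted p = 1.57e-06), or 2.82-fold, with a clear gap between the lines. Psmb8, the inducible counterpart of Psmb5, read 10.39, 10.34 and 10.08 in AB1 and 10.84, 11.03 and 10.94 in AC29. It passed the adjusted p (limma, 0.000786) but its difference of 0.67 ± 0.11 (SE), or 1.59-fold, was under the 2-fold minimum. Psmb9, the counterpart of Psmb6, read 8.49, 8.45 and 8.19 in AB1 and 8.97, 9.51 and 9.08 in AC29. Its difference was 0.81 ± 0.15 (SE; limma adjusted p = 0.00184), or 1.76-fold, also under the minimum, and AC29 replicate 14 stood highest.

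The constitutive counterparts did not all move with them. Psmb5, the chymotrypsin-like subunit of the standard proteasome, read 12.84, 12.73 and 12.75 in AB1 and 11.59, 11.96 and 11.83 in AC29. AB1 was higher on every array, by 1.97-fold (-0.98 ± 0.11, SE; limma adjusted p = 7.54e-05), just short of the 2-fold minimum. Psmb6 and Psmb7 were higher in AC29 by 0.51 ± 0.12 and 0.45 ± 0.08, each past the adjusted p in limma (0.00669 and 0.00138) and under the minimum. Within an array, Psmb8 minus Psmb5 was -2.51 ± 0.15 (SD, n = 3) in AB1 and -0.86 ± 0.10 in AC29, a shift of 1.65 toward the inducible subunit. Psmb10 minus Psmb7 shifted by 1.04, from -3.51 ± 0.13 to -2.47 ± 0.13, and Psmb9 minus Psmb6 by 0.31, from -3.91 ± 0.12 to -3.60 ± 0.06. None of the 3 pairs overlapped between the lines, and each gave an exact permutation p = 0.1, the smallest possible. Levels of different probe sets are not comparable, so these values show unequal change and not the share of a subunit in the proteasome. The larger part of the Psmb8 minus Psmb5 shift came from Psmb5 (-0.98) rather than Psmb8 (0.67). Psmb5, Psmb6 and Psmb7 each had a single probe set, so nothing else on the array checks these counterparts.

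**Figure D3:**
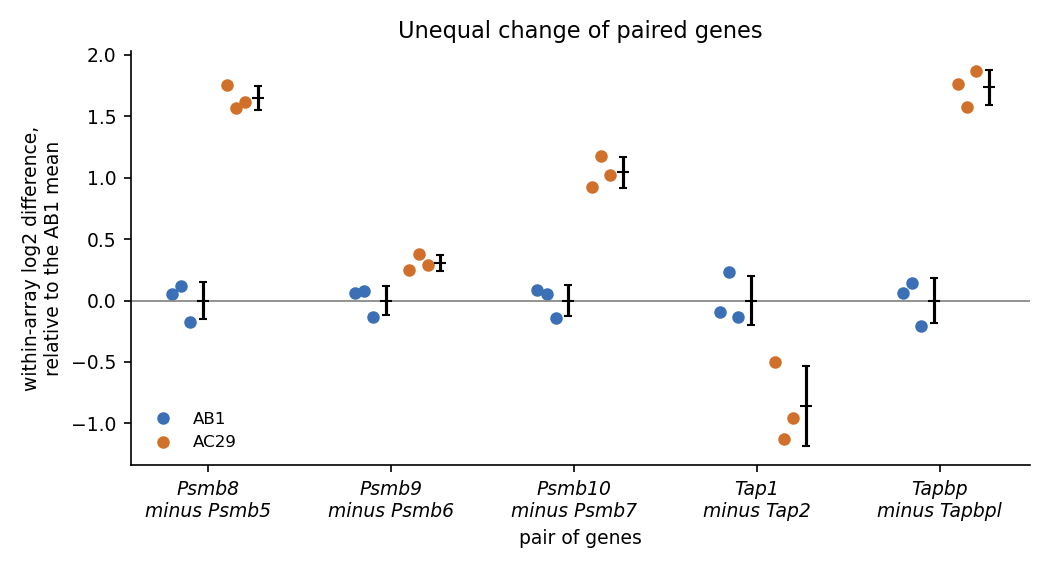
Within-array log2 difference of 2 genes (vertical axis, shifted so that the AB1 mean of each pair is 0) for the 5 gene pairs (horizontal axis), with each array as a point (AB1 blue, AC29 orange) and the mean ± SD over 3 arrays in black. The AC29 arrays lie above the AB1 arrays in 4 pairs and below them for Tap1 minus Tap2.

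The coactivator Nlrc5 stayed under the floor on every array. It read 5.84, 5.85 and 5.44 in AB1 and 4.23, 4.15 and 4.39 in AC29. The groups did not overlap and the fit called it (difference -1.46 ± 0.13, SE; limma adjusted p = 1.49e-05), but no fold is given since both lines lie in the range of background; with the 90th percentile as the floor (5.68), it was above it on AB1 replicates 4 and 5 and below it on replicate 6.

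Neighbours in the class II region differed from each other. In RefSeq order they are Psmb9 (difference 0.81, 95% interval 0.48 to 1.15), Tap1 (-1.14, interval -1.44 to -0.84), Psmb8 (0.67, interval 0.43 to 0.91) and Tap2 (-0.28, interval -0.56 to 0.0015, not passed). Psmb9 and Tap1, which share the stretch printed above, thus have intervals on opposite sides of 0. Of the class II genes within 4 measured genes of the cluster, H2-Oa, H2-DMa, H2-DMb2, H2-Ob, H2-Ab1 and H2-Aa were not above the floor on any array. H2-Eb1 was just above it on all 6, at 6.41 in AB1 and 6.33 in AC29, and was not called. Tapbp lies before the Psmb9 cluster in RefSeq order on the same chromosome. Around Tapbp, none of the 8 nearest measured genes was called: Zbtb22 and Rgl2, on either side of it, differed by 0.32 ± 0.10 (SE) and 0.06 ± 0.08. On the adjusted p alone Cd320 (0.76), B3galt4 (0.44), Daxx (0.37) and Zbtb22 passed, all toward AC29. Kifc1, Rgl2, Pfdn6 and Wdr46 did not. Near the Psmb9 cluster, Brd2 (0.88) also passed the adjusted p alone, toward AC29. Against a share of 10.9% over all genes of the array, 4 of 56 neighbours within 4 measured genes of the 10 were called. They were Golm2 (4.93-fold at least) near B2m and the sodium channel subunit Scnn1a (2.47-fold) near Tapbpl, higher in AC29, and the glutaredoxin Glrx (3.05-fold) near Erap1 and the endoplasmic reticulum stress gene Herpud1 (2.31-fold) near Nlrc5, higher in AB1.

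**Figure D4:**
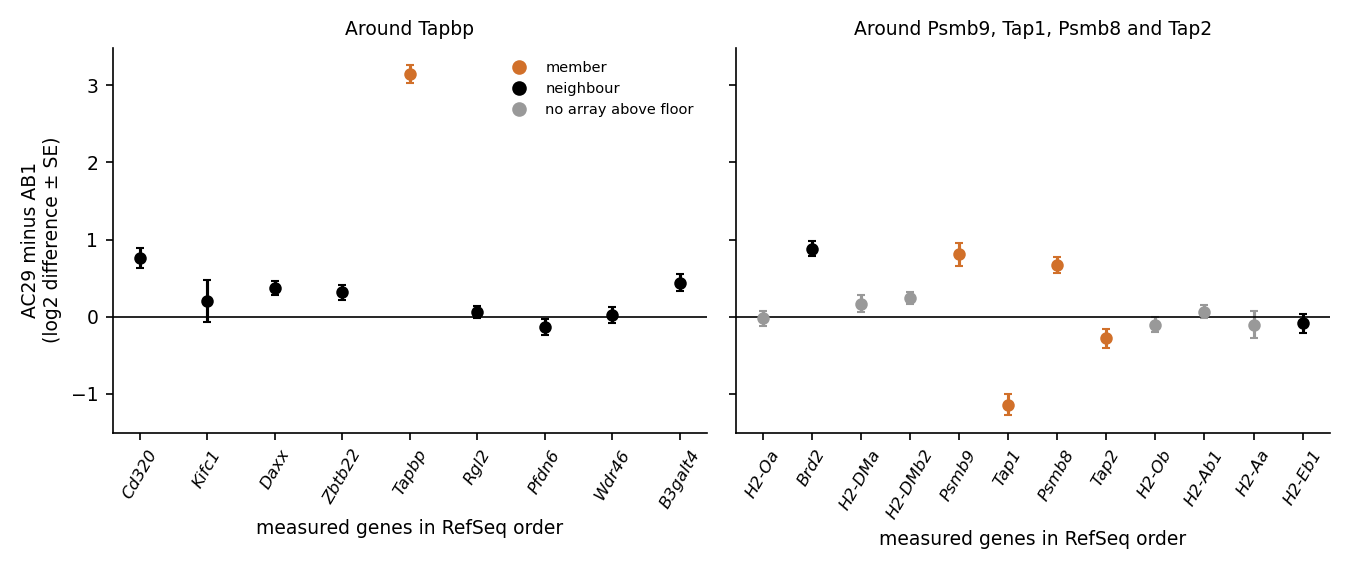
AC29 minus AB1 (vertical axis, log2 ± SE from limma) for measured genes in RefSeq order (horizontal axis) around Tapbp and around the Psmb9, Tap1, Psmb8 and Tap2 cluster; orange marks the genes of the set, black their neighbours and grey genes with no array above the floor. Tapbp at 3.15 lies well above its neighbours, of which Cd320 is next at 0.76, and Tap1 at -1.14 lies between Psmb9 and Psmb8.

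The AB1 arrays were not alike for these genes. AB1 replicate 6 gave the lowest AB1 value for all 10 of them, against 39.3% of all genes. In AC29 the lowest value came from replicate 13 for 5 genes and from replicate 14 for the other 5, with 31.0% and 43.2% over all genes. Without AB1 replicate 6 the counts called remained 4 toward AC29 and 2 toward AB1. AB1 replicate 6 was also the lowest for the interferon-induced genes Usp18 (8.58, 9.10 and 7.80 in AB1 replicates 4, 5 and 6) and Irf9 (7.95, 8.28 and 7.51). It was the highest, by a small margin, for Irf1 (8.52, 8.53 and 8.54) and Lap3 (10.56, 10.55 and 10.57), which interferon also induces. These 4 genes were set side by side after their values were seen and are not a count over interferon-induced genes. The classical heavy chains H2-D1 (11.85, 11.74 and 11.62) and H2-K1 (11.47, 11.27 and 11.20) were also lowest in AB1 replicate 6. Among the class I transcriptional control genes described further on, Irf7 (6.94, 7.13 and 6.51) and Stat2 (7.04, 7.12 and 6.69) were also lowest in AB1 replicate 6. So were Irf2, Irf3, Rfx5, Rfxap, Nfya, Nfyb, Nfyc, Relb and Ciita. Highest there were Irf8, Suz12 and Rela (9.89, 9.90 and 9.91), and the genes of that list not named here lay between. Irf8 and Ciita were not above the floor on any array. A cause was not tested.

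The classical heavy chains H2-D1 and H2-K1, which these genes load, were higher in AB1, unlike Tapbp. H2-D1 read 11.85, 11.74 and 11.62 in AB1 and 9.33, 9.20 and 9.26 in AC29, and H2-K1 11.47, 11.27 and 11.20 against 8.97, 9.23 and 9.12. AB1 was higher by 5.54-fold and 4.61-fold (limma adjusted p = 4.49e-08 and 2.56e-07). Probe sets disagreed for H2-D1: of 9, 7 were called higher in AB1 and 1 higher in AC29; for H2-K1, 3 of 4 were called higher in AB1. BALB/c and CBA mice carry different MHC haplotypes, and heavy chains vary in sequence between haplotypes. Probe sequences were not analysed here for any gene, so a difference in sequence under a probe and a difference in RNA level cannot be told apart. This limit holds for the heavy chains and for every other gene compared, MHC-linked or not. Of 13 measured heavy chain and related genes, 2 were called higher in AB1 and 1, the lipid-presenting Cd1d1 (2.51-fold), higher in AC29; without probe sets of the _x_at and _s_at kinds, which can detect related transcripts, 1 was called higher in AB1. The median difference was 0.09, and H2-M3 (-0.29) and the Fc receptor Fcgrt (-0.16), the brightest not called, were near 0. For this list and those below, the share called was 10.9% over all genes. It was 16.5% among genes above the floor on at least 3 arrays.

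Among 14 subunits of the 20S core, 1 was called: Psmb2, higher in AC29 by 2.11-fold (1.08 ± 0.24, SE; limma adjusted p = 0.00553). On the adjusted p alone, 10 of the 14 were higher in AC29 and 1, Psmb5, higher in AB1, against 19.1% and 20% of all genes, and the median difference was 0.44. The brightest not called were Psmb4 (0.38) and Psma2 (0.14). Psmb2 varied among flasks (11.35, 10.66 and 11.18 in AB1, 11.61, 12.47 and 12.35 in AC29). Without AB1 replicate 5 or without AC29 replicate 14 no core subunit was called higher in AC29 and 1 was called higher in AB1, and without AC29 replicate 15 none was called in either direction. Of 27 cap, activator and assembly genes, Psmc5, an ATPase of the 19S cap, was called higher in AC29 (2.04-fold; none without AC29 replicate 15), and 13 were higher in AC29 and 5 in AB1 on the adjusted p alone, with a median of 0.29; the cap subunits Psmd11 and Psmd14 differed by 0.43 and 0.29.

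Of 15 chaperones and translocation factors of the endoplasmic reticulum, 2 were called higher in AB1, the disulfide isomerase Pdia6 (2.07-fold) and the glucosyltransferase Uggt1 (2.02-fold), which returns unfinished glycoproteins, class I included, to their chaperones. Without AB1 replicate 5 or AC29 replicate 14, 1 of them was called, and when the probe sets of each gene were averaged none was. The brightest not called were Hspa5 (0.02) and calreticulin, Calr (0.13), a part of the loading complex. The list's median was 0.08. Of 12 measured cytosolic and other peptidases, the aminopeptidase Rnpep was called, 2.59-fold higher in AB1; the interferon-inducible leucine aminopeptidase Lap3 differed by 0.72 toward AC29 and Prep by -0.11, and the median was 0.04.

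Genes of class I transcriptional control, which are not all transcription factors, went in both directions. Of 22 measured, 3 were called higher in AC29 and 2 higher in AB1, against 5.12% and 5.82% of all genes. The median was 0.03. Irf1, which binds the interferon element of class I pathway promoters, read 8.52, 8.53 and 8.54 in AB1 and 10.05, 10.21 and 10.41 in AC29. The difference was 1.69 ± 0.10 (SE; limma adjusted p = 1.46e-06), or 3.23-fold, and AB1 flasks were nearly identical. Stat3 (3.32-fold by its brightest probe set, 2 of 4 called) and Rfxap (2.43-fold, both probe sets called), a part of the RFX complex with which Nlrc5 works, were also higher in AC29. Irf9, the DNA-binding part of the factor formed after type I interferon, was at least 3.58-fold higher in AB1 and Irf3 2.27-fold by its brightest probe set, the only called one of 4. When the probe sets of each gene were averaged, 2 factors were called higher in AC29 and 1 higher in AB1; without the _x_at and _s_at kinds the counts were 3 and 1. The brightest not called were the Polycomb genes Ezh2 (0.84) and Eed (-0.20).

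Of 15 interferon receptor and signalling genes, 1 was called in each direction. Usp18, an interferon-induced brake on the type I receptor, was at least 5.35-fold higher in AB1 (8.49 ± 0.66 against 4.83 ± 0.22, SD, n = 3). Socs3, a brake on cytokine receptors, was 2.39-fold higher in AC29, with all 3 of its probe sets called. The phosphatase Ptpn2 (0.64) and the kinase Jak1 (-0.69) were the brightest not called, and the median was -0.01. Of the 4 Ptpn2 probe sets, 2 were called higher in AC29. The interferon genes Ifng and Ifnb1, named here after their values were seen, were not above the floor on any array. Of 6 measured ligands and brakes for natural killer cells, which respond to cells low in class I, Nectin2 was called, 5.41-fold higher in AC29. Cd47 (0.88) and Pvr (-0.92) were not called by their brightest probe sets, and the median was 0.54. Of the 7 Pvr probe sets, 1 was called higher in AB1. Without AB1 replicate 6, 1 of the 6 genes was also called higher in AB1.

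**Figure D5:**
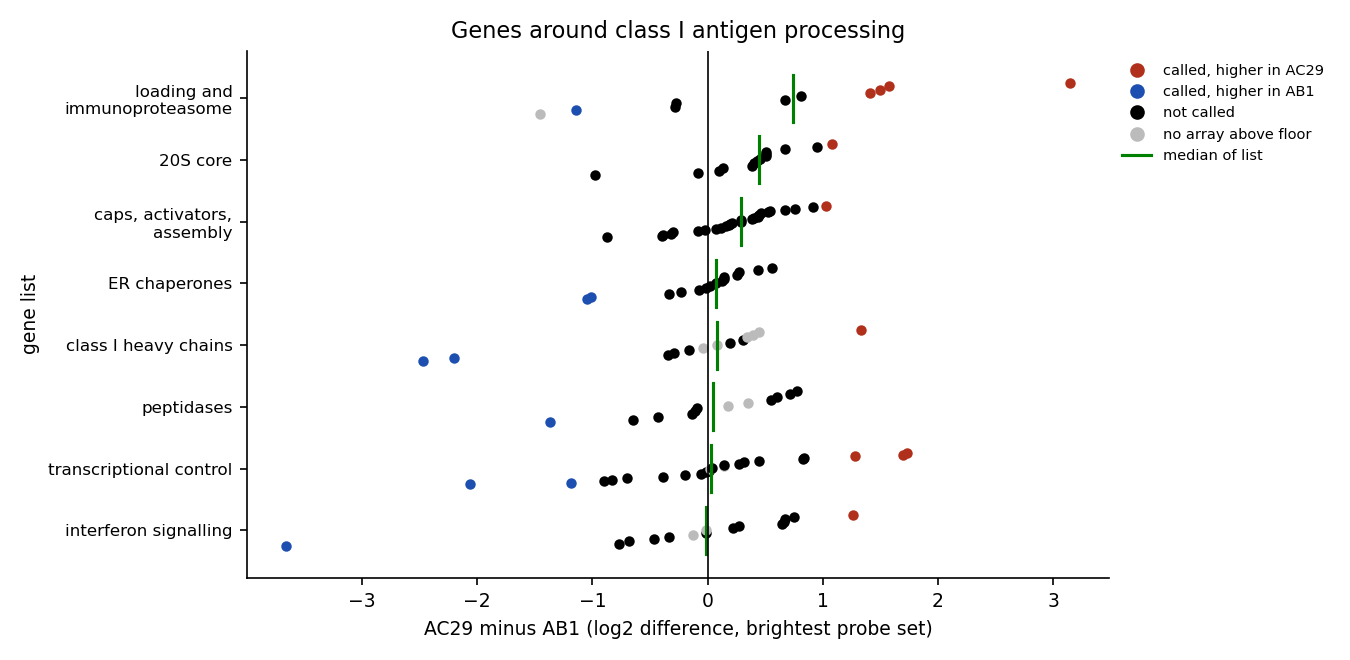
AC29 minus AB1 (horizontal axis, log2) of the brightest probe set of each measured gene in 8 gene lists of class I antigen processing (vertical axis); each point is a gene, coloured by its call, grey where no array was above the floor, and green lines are list medians. The median lies at 0.74 for the loading and immunoproteasome genes, 0.44 for the 20S core, and between -0.01 and 0.29 for the other 6 lists drawn.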

How the data were processed

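The deposited values are on a log2 scale, judged by their range, and cover 45037 probe sets and 64 controls, which were left out. GCOS, RMA and Partek 6.4 are listed in the submitters' processing notes without a role for each; per the labels, 5 ug of total RNA was labelled with biotin. RMA corrects background, equalises arrays and summarises probes. Names came from the platform annotation, in which 34945 probe sets have 1 symbol, 932 several and 9160 none; 9010 genes have more than 1 probe set. Every probe set was fitted with limma 3.58.1 in R 4.3.3, the cell line being the single covariate, and p-values were adjusted over 18193 genes (over 45037 probe sets where probe sets are counted) by Benjamini-Hochberg. Where no array of a line exceeded the floor, folds are lower bounds. Gene pairs were compared with 2-sided exact permutation tests (scipy 1.17.1).

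The members and lists were chosen with earlier results of these data known. Named were the members, the called genes and the 2 brightest not called of each list (up to 6), the standard catalytic subunits, called neighbours and the 3 genes most like Tapbp. The fit was tested on simulated data. The alternatives were other normalization, centring, probe set rules, variance models, thresholds, floors and leaving out each array. The number of arrays limits the precision. Gene order and sequences are from RefSeq, GRCm38.p6.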

Additional observations from a re-analysis of the deposited data

How the results depend on the processing

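Over the alternatives run, 144 of 149 member differences kept their direction and side of the threshold, including all 60 that left out an array, and none reversed; B2m, not called for its size, also lost the adjusted p without AB1 replicate 4 or 5 (limma, 0.073 and 0.0535). When the probe sets of each gene were averaged, Tap1 (-0.38) and Tapbpl (0.83) were no longer called, which left 3 genes toward AC29 and 1 toward AB1. Testing only genes with at least 3 arrays above the floor also left 1 toward AB1, since Nlrc5 was not tested. Without a minimum difference, 3475 genes of all were called toward AC29 and 3630 toward AB1 in limma, and among the 10, 6 and 3. With the mean of probe sets, Tap1 minus Tap2 differed by -0.11 and Tapbp minus Tapbpl by 2.29 between the lines; the other probe sets of Tap1 and Tapbpl were under the floor. Of 240 list counts, 209 stayed within 1.5 times, 12 were lower and 19 higher. Leaving out an array gave exact permutation p = 0.2 for every gene pair, the smallest that design allows. No paired analysis was possible because the lines share no replicate numbers. Array signals near the floor limit what can be said of Nlrc5 and of the second probe sets of Tap1, Tapbpl and Psmb8.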
